A study of Capra hircus with 24 samples.

Results

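The genes described here are 7 mediators of inflammation: IL1A, IL1B, IL1RN, IL6, IL10, TNF and PTGS2. They were found on the array through their cattle RefSeq accessions, which are NM_174092 (IL1A), NM_174093 (IL1B), NM_174357 (IL1RN), NM_173923 (IL6), NM_174088 (IL10), NM_173966 (TNF) and NM_174445 (PTGS2). They are 7 of the 26748 accessions on the array, and 18 of its 43653 probes read them. Of the 18, 13 probes of 6 genes were bright enough to be tested, and IL6 had none.

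The study measured goat RNA from 3 sources: the somatic cells that milk carries (MSC), the nuclear cells of peripheral blood (PNCB), and milk fat globules (MFG), which are lipid droplets enclosing some cytoplasm of the cell that secreted them. All 8 donors were healthy female dairy goats in lactation 3, 4 from the Polish White Improved (PWI) and 4 from the Polish Fawn Improved (PFI) population, and every goat gave RNA of all 3 sources. Each of the 24 arrays carried 1 sample in the Cy5 dye against a common reference in Cy3, made by pooling RNA of blood nuclear cells of 7 healthy goats in lactation 4 (4 PWI and 3 PFI). The series text also mentions sampling after the end of lactation, and it is not clear whether this refers to the reference or to the samples.

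IL1A and IL1B encode the cytokines IL-1 alpha and IL-1 beta, which start inflammatory signalling through the type I IL-1 receptor. IL1RN encodes the IL-1 receptor antagonist, which occupies the same receptor without signalling. TNF and IL6 are further cytokines of the acute response, made largely by monocytes, macrophages and other activated cells, IL10 restrains that response, and PTGS2 (cyclooxygenase-2) catalyses the committed step of prostaglandin synthesis in inflamed tissue. In milk, such transcripts can come from leukocytes as well as from epithelial cells of the udder. In the goat gene table (assembly ARS1.2) IL1A and IL1B are neighbours, with 0 protein-coding genes between them, and 7 protein-coding genes lie between IL1B and IL1RN.

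Values are given as log2 of the Cy5 over Cy3 ratio after background correction and normalization, so 0 is the level of the blood pool and 1 is a doubling. An offset of 50 was added to the intensities, so the ratio of a dim probe understates its change. The net Cy5 signal is the spot's median brightness minus its local background, in scanner units, and is not comparable between probes. It is not normalized between arrays either. Its median over all probes ran from 13.5 in MFG of PFI goat 1 to 322 in MFG of PWI goat 2. It is given to show how bright a spot was, and differences between samples are read from the ratios. A difference was called when the limma test, with Benjamini-Hochberg adjustment over all 27411 probes tested, gave an adjusted p under 0.05. Each gene is represented by its brightest probe over the 24 arrays, and the others are set beside it.

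A set of 4 arrays stood apart from the rest. Cy5 was well above background for 84.6% and 75.3% of all probes in MFG of PWI goats 2 and 4, against 44.1% to 51.5% in MFG of the other goats, 51.2% to 60.9% in MSC and 57.5% to 65.6% in PNCB. On the PNCB arrays of PWI goats 3 and 4 the Cy3 share was low, at 20.4% and 19.9%. For some results that rest on these arrays, the value without them is given. Blood RNA and milk RNA were extracted with different kits, so in differences from PNCB the kit cannot be told apart from the source. MFG was scanned on another day, and that day cannot be told apart from MFG. In bulk RNA, fewer cells of a type and less RNA per cell cannot be told apart either, and defining markers of the labelled cells were not analysed here because the files give no gene symbols. The choice of scaling shifts all probes together: centring each array on its median in place of loess moved the median MFG difference from PNCB from -0.13 to -0.85, that of MFG from MSC from -0.02 to -0.62, and that of MSC from PNCB from -0.04 to -0.19. The scanner's processed signals put these medians at -0.60, -0.21 and -0.18.

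Detection differed between genes and sources. IL6, an acute-phase cytokine, had 2 probes (A_73_107706 and A_73_P035016), and neither was well above background on any of the 24 arrays. No level of IL6 can be given from these probes, and its absence is not shown. The highest net Cy5 signals of the IL6 probes were 126 and 133, both on the MFG array of PWI goat 2, one of the arrays that stood apart. The other probes too dim to test were also rarely detected. IL1B A_73_110556 was above background on 1 array, IL10 A_73_P030396 on 2 arrays and PTGS2 A_73_P100746 on 3 arrays. Except for 1 MSC array of the PTGS2 probe (PFI goat 2), these were the MFG arrays of PWI goats 2 and 4, which stood apart. Among the tested probes, 1 IL1B probe (A_73_P040131) was above background on 0 of 8 MSC arrays, 7 of 8 PNCB arrays and 2 of 8 MFG arrays, and entered the test through PNCB alone, as did PTGS2 A_73_P101251. The 2 MFG arrays for that IL1B probe were again those of PWI goats 2 and 4. The 1 MFG array for PTGS2 A_73_P101251 was that of PWI goat 2. In MSC and PNCB the brightest probes of IL1A, IL1B, IL1RN, IL10, TNF and PTGS2 were above background on all 8 arrays. In MFG the IL1B, IL1RN and IL10 probes were above background on all 8 arrays, TNF on 7, IL1A on 3 and PTGS2 on 1.

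**Figure D1:**
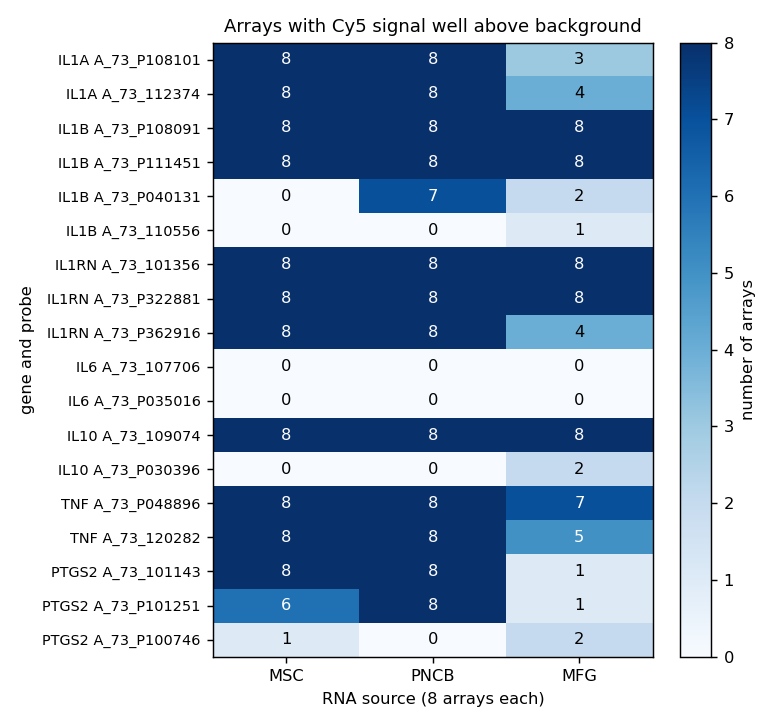
Number of arrays (of 8 per RNA source, columns) on which each of the 18 probes (rows) had a Cy5 signal well above background. Both IL6 probes stand at 0 in every source, and fewer MFG than PNCB arrays were above background for both IL1A probes (3 and 4 against 8), IL1RN A_73_P362916 (4 against 8), both TNF probes (7 and 5 against 8), PTGS2 A_73_101143 and A_73_P101251 (1 against 8 each) and IL1B A_73_P040131 (2 against 7).

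The first comparison asks how the milk somatic cells differ from blood nuclear cells of the same goats. IL1A, IL1B and IL1RN were higher in MSC in every goat measured, by 2.86, 1.89 and 2.93 on the log2 scale. IL10 and 1 of 2 TNF probes were higher by less, and PTGS2 did not pass the test. Of the 13 tested probes, 9 were called higher in MSC, 0 lower and 4 were not called. Over all probes tested 49.6% were called, 22.5% higher and 27.1% lower, so the members' share of higher calls lies above the background and that of lower calls below it. The median difference was 1.09 over the 13 probes and -0.04 over all probes. MSC and PNCB did not overlap for 7 of the 13 probes, against 21.5% of all probes. Where the arrays were centred on the median, 33.9% of all calls were higher in MSC, against 45.4% as processed here.

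IL1A (A_73_P108101) stood at a log2 ratio of 1.47 at the lowest, 2.86 at the median and 3.90 at the highest in MSC. In PNCB the corresponding values were -1.03, 0.09 and 0.26. The net Cy5 signal ran from 286 to 4611.5 in MSC and from 87.5 to 289 in PNCB. The lowest MSC array lay above the highest PNCB array on the ratio scale, and MSC was higher in 8 of 8 goats. The mean was 2.76 ± 0.89 in MSC and -0.10 ± 0.45 in PNCB (SD, n = 8 each), a difference of 2.86 (SE 0.32, limma adjusted p = 1.13e-07), or 7.24-fold. The other IL1A probe, A_73_112374, differed by 2.70 (adjusted p = 7.14e-07). The MSC goats differed widely among themselves, with PWI goat 4 at 1.47 and PFI goat 1 at 1.56 and the other 6 goats between 2.63 and 3.90.

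IL1B (A_73_P108091) had log2 ratios of 0.99, 1.83 and 2.93 (lowest, median and highest) in MSC and -0.53, 0.05 and 0.41 in PNCB. Again the sources did not overlap, and MSC was higher in 8 of 8 goats. The means were 1.90 ± 0.64 and 0.01 ± 0.32 (SD, n = 8 each), a difference of 1.89 (SE 0.23, adjusted p = 5.2e-07), or 3.70-fold. Probe A_73_P111451 differed by 1.96 (adjusted p = 1.02e-06). The third IL1B probe, A_73_P040131, differed by 0.26 (adjusted p = 0.332). Its PNCB value in PWI goat 3, one of the arrays that stood apart, was -2.19, and without that goat the difference was -0.03. No MSC array was above background for this probe, so it carries no level for MSC. The difference called for IL1B thus rests on the 2 probes that were above background on all arrays.

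IL1RN, the brake on the IL-1 receptor, was read by 3 probes that all rose in MSC. On A_73_101356 the log2 ratio was 1.60 at the lowest, 3.03 at the median and 3.88 at the highest of 7 MSC arrays. The spot of PFI goat 2 carried an outlier flag and was left out, although its net Cy5 signal of 103122 lay within the range of the others. In PNCB the ratios were -0.48, -0.05 and 0.39, and the sources did not overlap. The median net Cy5 signal was 84692 in MSC and 19600 in PNCB. The difference of means (2.88 ± 0.82, n = 7, against -0.03 ± 0.29, n = 8, SD) was 2.93 (SE 0.42, adjusted p = 4.63e-06), or 7.62-fold, with MSC higher in 7 of 7 goats. The reference channel also moved for this probe: Cy3 alone was lower by 0.70 on the MSC arrays (adjusted p = 9.58e-05), although it held the same pool, and Cy5 alone gave 2.44. Probes A_73_P322881 and A_73_P362916 differed by 2.13 (adjusted p = 7.33e-08) and 1.09 (adjusted p = 2.68e-06), without overlap.

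IL10 (A_73_109074), the cytokine that restrains the response, had ratios of 0.19, 0.38 and 0.72 in MSC and -0.53, 0.09 and 0.20 in PNCB. The ranges met at their edges, and MSC was higher in 8 of 8 goats. The difference was 0.45 (SE 0.17, adjusted p = 0.0294). It passed the threshold in 10 of 21 alternatives, and leaving out any of the 4 PFI goats ended the call (adjusted p = 0.0519 to 0.0791).

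TNF is a cytokine of macrophages and lymphocytes. Its brightest probe (A_73_P048896) had ratios of -0.66, 1.14 and 1.58 in MSC and 0.05, 0.25 and 1.07 in PNCB, with overlapping ranges. The difference was 0.62 (SE 0.41, 95% interval -0.23 to 1.48, adjusted p = 0.22), with MSC higher in 5 of 7 goats. With array weights the difference was 0.88 (adjusted p = 0.0311) and called. The MSC array of PFI goat 1, at -0.66, was below every PNCB array. Probe A_73_120282 rose by 0.60 (SE 0.16, adjusted p = 0.00407), also with overlap. That call was lost with the scanner's processed signals, the deposited table, median centring and in PFI goats alone.

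PTGS2 (A_73_101143), the inducible prostaglandin enzyme, ranged from -0.37 through a median of 0.41 to 2.27 in MSC and from -0.32 through 0.16 to 0.54 in PNCB. The highest MSC value was that of PFI goat 2, with a net Cy5 signal of 1784.5 against 139 to 567.5 in the other 7 goats. The same goat was also highest in MSC on A_73_P101251, at 1.81. The mean difference was 0.36 (SE 0.26, 95% interval -0.18 to 0.89, adjusted p = 0.262), and on A_73_P101251 it was 0.17 (adjusted p = 0.494).

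**Figure D2:**
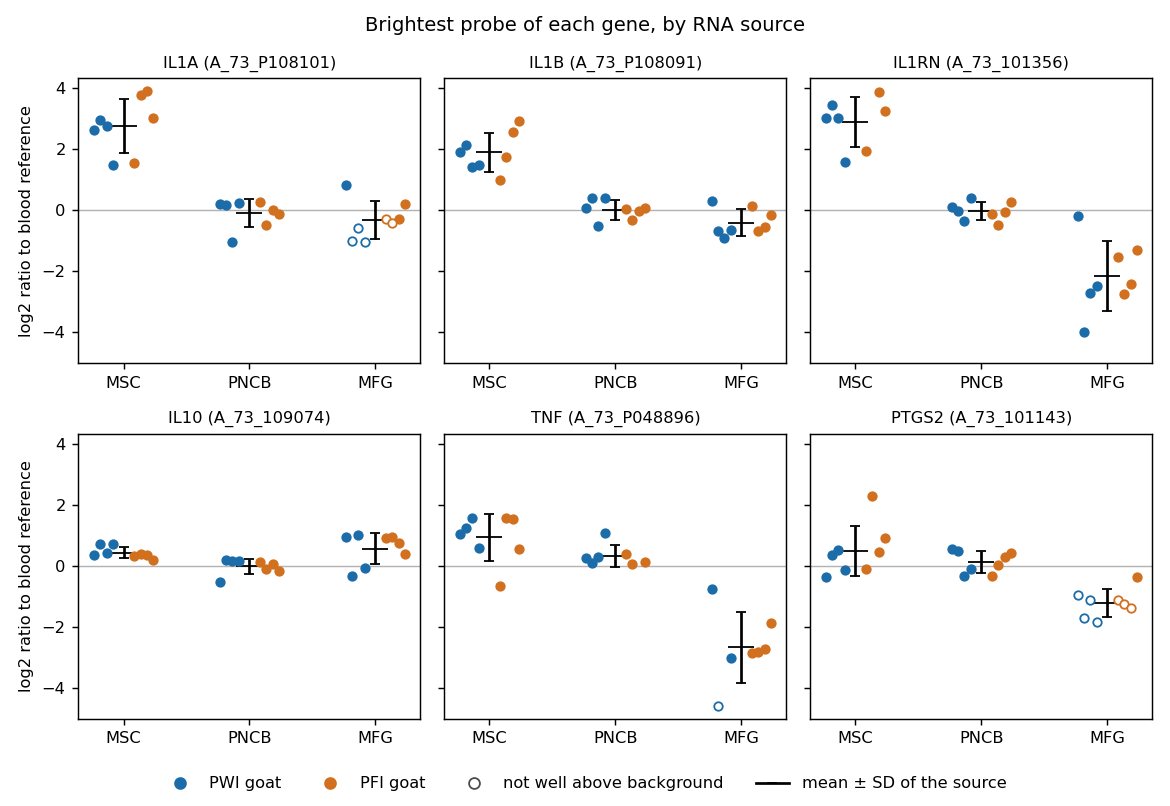
Log2 ratio to the blood reference (vertical axis) of the brightest tested probe of 6 genes in the 3 RNA sources, with 1 point per goat and the mean and SD of each source. IL1A, IL1B and IL1RN in MSC lie wholly above PNCB and MFG, the mean of IL10 is lowest in PNCB, and the MFG points of TNF reach down to -4.59 and those of IL1RN to -4.00. Both of these lowest points are from PWI goat 2, one of the arrays that stood apart, and the TNF point was not above background.

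The second comparison sets milk fat globules against blood nuclear cells. IL1RN, TNF and PTGS2 were lower in MFG on their brightest probes, with log2 differences of -2.14, -2.99 and -1.35, and IL10 was higher by 0.57. IL1A and IL1B did not pass the test. Of 13 probes, 1 was called higher, 4 lower and 8 were not called. Over all probes 63.9% were called, 25.5% higher and 38.4% lower, so the share of members called was below the background. That did not hold under every setting: 10 of 13 members and 72.7% of all probes were called with the scanner's processed signals, and 11 of 13 and 80.5% with median centring. The ranges did not overlap for 2 of the 13 probes, against 28.5% of all probes. Median centring gave 18.3% of calls higher in place of 39.9%.

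IL1A in MFG had ratios of -1.03, -0.37 and 0.84 and its difference from PNCB (-0.23, SE 0.32, 95% interval -0.89 to 0.43) missed the threshold (adjusted p = 0.544). It was above background on 3 of 8 MFG arrays only. IL1B in MFG had ratios of -0.92, -0.60 and 0.30, and the difference of -0.42 (SE 0.23, 95% interval -0.90 to 0.07) missed the threshold (adjusted p = 0.122). The scaling bears on both, since both were called lower in MFG with the scanner's processed signals, by -1.96 for IL1A and -1.01 for IL1B, and with median centring, by -1.31 and -1.82. Relative to the median of all probes these values were -1.37 and -0.42 with the processed signals, and -0.47 and -0.98 with median centring.

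IL1RN (A_73_101356) had ratios of -4.00, -2.45 and -0.20 in MFG, and was below PNCB in 8 of 8 goats. Its net Cy5 signal ranged from 417 to 8306 in MFG, with a median of 1647. The lowest array was that of PWI goat 2 and the highest that of PWI goat 1, whose ratio lay within the range of PNCB. The difference was -2.14 (SE 0.40, adjusted p = 7.77e-05), a 4.40-fold lower ratio. The other IL1RN probes gave -0.47 (adjusted p = 0.0759) and -0.01 (adjusted p = 0.961), so only the brightest of the 3 probes passed the test. Without the 4 arrays that stood apart, A_73_P322881 stood at 0.15, but only 1 PWI goat then remained in each of these sources. These were goat 1 in MFG (0.56) and goat 2 in PNCB (-0.18), while the PFI means were -0.37 and 0.08. Probe A_73_P322881 was called lower without PFI goat 1 (-0.57, adjusted p = 0.0426), without PWI goat 1 (-0.67, adjusted p = 0.0148) and under 3 other alternatives. Without those 4 arrays the value of A_73_101356 was -1.69, and with median centring it was -3.88.

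IL10 in MFG had ratios of -0.35, 0.82 and 1.02. PWI goats 2 and 4 were lowest, at -0.35 and -0.07, and these are the 2 MFG arrays that stood apart. The difference from PNCB was 0.57 (SE 0.17, adjusted p = 0.00459), with MFG higher in 6 of 8 goats, and without the 4 arrays it was 0.95. The call was lost with the scanner's processed signals (0.66, adjusted p = 0.0652), with flagged spots kept (0.36, adjusted p = 0.0788) and in PWI goats alone (0.39, adjusted p = 0.307). Under median centring the sign turned, at -0.40, while the median of all probes stood at -0.85, so relative to all probes IL10 was at 0.44 there and at 0.70 as processed here.

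TNF (A_73_P048896) in MFG had ratios of -4.59, -2.82 and -0.76 over 7 arrays, all below every PNCB array. The lowest was that of PWI goat 2, one of the arrays that stood apart, where the probe was not above background. The net Cy5 signal ran from 42 to 554 in MFG and from 2827 to 6313.5 in PNCB. The difference was -2.99 (SE 0.43, adjusted p = 3.5e-06), or 7.94-fold, and was negative in 6 of 6 goats with both values. Without the 4 arrays it was -1.84, where only PWI goat 1, the highest MFG value at -0.76, stood for PWI in MFG. Probe A_73_120282 fell by 0.54 (adjusted p = 0.00649), a call lost with flagged spots kept (adjusted p = 0.0641) and in PWI goats alone (adjusted p = 0.304).

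PTGS2 (A_73_101143) in MFG had ratios of -1.84, -1.19 and -0.36, all below the PNCB range. It was above background on 1 of 8 MFG arrays, that of PFI goat 4. The difference was -1.35 (SE 0.26, adjusted p = 9.21e-05), or 2.55-fold, lower in 8 of 8 goats. Here too the reference channel moved, with Cy3 alone lower by 0.65 on the MFG arrays (adjusted p = 0.000107), and Cy5 alone gave -2.48. The scanner's processed signals gave -4.21. Probe A_73_P101251, with 1 MFG array above background, differed by -0.18 (adjusted p = 0.43).

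The third comparison is between the milk sources, which shared 1 extraction kit. IL1A, IL1B, IL1RN, TNF and PTGS2 were lower in MFG than in MSC, with log2 differences of -3.08, -2.30, -5.07, -3.61 and -1.71. IL10 did not pass the test. Of 13 probes, 10 were called lower in MFG, 0 higher and 3 were not called, against 34.8% called over all probes, 22.2% lower and 12.6% higher. The members' share of lower calls lies above that background, and the MSC arrays are the same as in the comparison with PNCB. The median was -2.17 over the 13 probes and -0.02 over all probes. MSC and MFG did not overlap for 9 of 13 probes, against 11.9% of all. The split of all calls depended on scaling: 36.3% were higher in MFG as processed here, 22.6% with the scanner's processed signals, 4.51% with median centring and 46.9% with Cy5 alone.

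For IL1RN (A_73_101356) the difference was -5.07 (SE 0.42, adjusted p = 1.97e-08), a 33.5-fold lower ratio in MFG, seen in 7 of 7 goats without overlap. In this fit 0 of the 27383 probes compared had a larger absolute difference. That rank depended on the processing, as 9 probes exceeded it with the scanner's processed signals and 23 with Cy5 alone. Within each breed the difference was -5.13 in PWI and -5.01 in PFI, and without the 4 arrays that stood apart it was -4.62. The reference channel was higher by 0.59 on the MFG arrays (adjusted p = 4.2e-05), and Cy5 alone gave -4.77. Probes A_73_P322881 and A_73_P362916 fell by 2.60 and 1.10 (adjusted p = 2.88e-08 and 5.36e-06).

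The IL-1 ligands were lower too. IL1A differed by -3.08 (SE 0.32, adjusted p = 1.33e-07) and IL1B by -2.30 (SE 0.23, adjusted p = 1.04e-07), each in 8 of 8 goats, and the other IL1A probe and IL1B A_73_P111451 by -2.90 and -2.17. None of these 4 probes overlapped between MSC and MFG. With the scanner's processed signals the IL1A difference was larger, at -5.30. IL1B A_73_P040131 differed by -0.04 (adjusted p = 0.907).

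TNF A_73_P048896 differed by -3.61 (SE 0.41, adjusted p = 8.54e-07), or 12.2-fold, and A_73_120282 fell by 1.14 (adjusted p = 5.03e-06), both without overlap. Without the 4 arrays the value of A_73_P048896 was -2.59, with only 1 PWI goat left in MFG. PTGS2 A_73_101143 differed by -1.71 (SE 0.26, adjusted p = 1.84e-05), with ranges that overlapped at PFI goat 4, highest in MFG at -0.36, and PWI goat 1, lowest in MSC at -0.37. For this probe 1 of 8 MFG arrays was above background, Cy3 alone was lower by 0.56 on the MFG arrays (adjusted p = 0.00054), Cy5 alone gave -2.75 and the processed signals -4.48. Probe A_73_P101251 differed by -0.34 (adjusted p = 0.178). IL10 differed by 0.13 (95% interval -0.22 to 0.47, adjusted p = 0.607). The IL10 value was called higher in MFG without the 4 arrays (0.42, adjusted p = 0.00686), in PFI goats alone (0.43, adjusted p = 0.0218) and with array weights (0.32, adjusted p = 0.0469), and lower with median centring (-0.65).

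**Figure D3:**
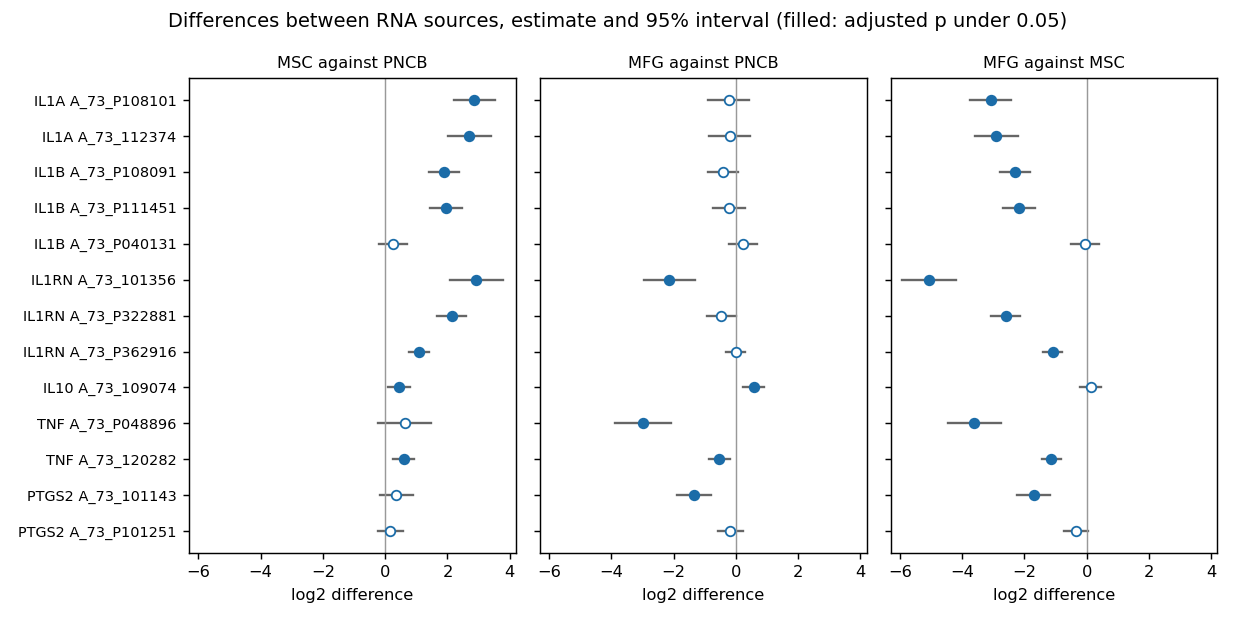
Difference in log2 ratio (horizontal axis) for each of the 13 tested probes (rows) in the 3 comparisons of RNA sources, with 95% intervals. MFG against MSC holds the IL1RN probe A_73_101356 at -5.07, with TNF A_73_P048896 at -3.61 next, while IL10 lies at or above 0 in all 3 panels.

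The sources can be ordered gene by gene. IL1A and IL1B were highest in MSC on their brightest probes. For PNCB and MFG the order depends on the processing, as MFG was called lower in 3 of 21 alternatives for IL1A and 4 of 21 for IL1B, and IL1A was above background on 3 of 8 MFG arrays against 8 of 8 in PNCB. Among these alternatives the scanner's processed signals and the deposited table gave the same estimates and were counted separately. IL1RN on its brightest probe ran from MSC through PNCB to MFG, with each neighbouring pair passing the test. TNF on its brightest probe was lowest in MFG, and MSC and PNCB were neighbours without a call. PTGS2 on its brightest probe had the same order as TNF. IL10 was lowest in PNCB as processed here, but MSC against PNCB passed in 10 of 21 alternatives, and median centring put MFG below PNCB. The 2 milk sources were called different in 4 of 21 alternatives, in both directions, so their order is not settled.

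The MSC goats differed in the level of several of these genes, and the plot of MSC values goat by goat shows them. PWI goat 4 and PFI goat 1 were lowest for IL1A and IL1RN, and PFI goat 1 was lowest for IL1B and TNF. Across goats, IL1A and IL1RN ratios moved together (Pearson r = 0.98, exact permutation p = 0.000794, adjusted p = 0.0167; Spearman rho = 0.93, exact permutation p = 0.00675; n = 7, two-sided). Without the 2 goats farthest from the median of IL1A, r was 0.94. This was the one relation of 21 examined that passed the adjusted threshold, of which 5 had an unadjusted p under 0.05, and the relations were chosen after the values had been seen. The 2 low goats also had the lowest shares of all probes above background in MSC, at 51.2% and 51.5% against 54.5% to 60.9% in the others. That share had r = 0.81 with IL1A (n = 8) and r = 0.87 with IL1RN (n = 7), each with an exact permutation adjusted p of 0.0979, and r was 0.33 and 0.48 without the 2 farthest goats. Its part in the relation was not tested. No r is given within a breed, where 4 PWI and 3 PFI goats had both values, and with breed means subtracted r was 0.98 over the same 7 goats.

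**Figure D4:**
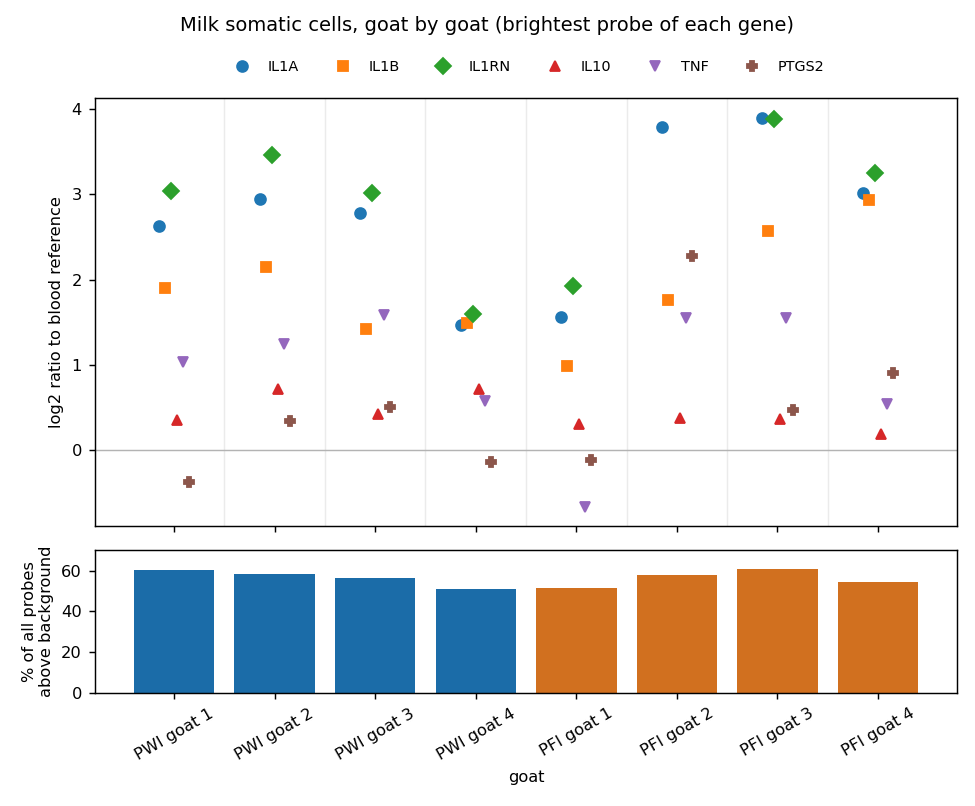
Upper panel, log2 ratio to the blood reference in MSC for the brightest probe of 6 genes in each of the 8 goats, and lower panel, the percentage of all probes with Cy5 above background on the same arrays. PWI goat 4 and PFI goat 1 are low for IL1A and IL1RN and have the lowest percentages, 51.2% and 51.5%, and PFI goat 2 stands alone for PTGS2 at 2.27.

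The breeds were compared within each source, with 4 goats each. No tested probe of these genes passed the test between PWI and PFI. In MSC 0 of 13 probes were called (lowest limma adjusted p = 0.988), as were 0 of all probes (0% called, and 1200 had an unadjusted p under 0.05). In PNCB 0 of 13 were called (lowest adjusted p = 0.972), with 0.0109% called over all probes, and in MFG 0 of 13 (lowest adjusted p = 0.564), with 0.0146% called. In each source 0 of the 13 probes had an unadjusted p under 0.05. Breed ranges without overlap were found for 0 of 13 in each source, against 3.71% of all probes in MSC, 5.05% in PNCB and 8.49% in MFG. The differences, PWI minus PFI, ran from -0.80 to 0.37 in MSC, from -0.45 to 0.38 in PNCB and from -0.40 to 0.21 in MFG on the log2 scale. They depended on the processing, with ranges over all alternatives of -1.13 to 0.78 in MSC, -0.71 to 1.33 in PNCB and -1.24 to 1.81 in MFG, none of them called.

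The 4 arrays that stood apart are all from PWI goats. Without them 9 of the 13 MFG differences and 6 of the 13 in PNCB changed sign. The MFG range became -0.04 to 1.81, with 2 probes at an unadjusted p under 0.05 and 0 called (lowest limma adjusted p = 0.355), and the PNCB range became -0.26 to 0.42 with 0 called (lowest limma adjusted p = 0.682). TNF A_73_P048896 in MFG went from -0.22 to 1.81 and IL1RN A_73_P322881 from 0.15 to 0.93, and each then rests on 1 PWI goat against 4 PFI goats, with that goat assumed to vary as the others do. IL1RN A_73_101356 went from -0.36 to 0.54. The direction of a breed difference in MFG is therefore not settled for these genes.

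The 95% interval lay within a 2-fold change for 12 of 13 probes in PNCB, 7 of 13 in MFG and 4 of 13 in MSC, so differences of 2-fold in MSC were not excluded for most probes. Some of these probes were dim, and the offset narrows the intervals of dim probes, which then bound no breed difference. In MSC this holds for IL1B A_73_P040131, above background on 0 of 8 arrays. In MFG it holds for that probe (2 of 8), PTGS2 A_73_P101251 (1), IL1RN A_73_P362916 (4) and TNF A_73_120282 (5). It also holds in PNCB for IL1RN A_73_P362916 (net Cy5 signal 24 to 51) and PTGS2 A_73_P101251 (17 to 135.5). Both were above background in Cy5 on 8 of 8 PNCB arrays, and in Cy3 on 0 of 8. In MSC, IL1A stood at 2.46 ± 0.67 in PWI and 3.07 ± 1.08 in PFI (SD, n = 4 each), a difference of -0.61 (95% interval -1.82 to 0.60). IL1RN stood at 2.78 ± 0.81 (n = 4) and 3.02 ± 0.99 (n = 3), a difference of -0.24 (95% interval -1.52 to 1.04). The lowest value, that of PTGS2 A_73_101143 in MSC, was -0.80 (SE 0.46, 95% interval -1.84 to 0.25), where PFI goat 2 at 2.27 is one of the 4 PFI values. In PNCB the same probe differed by 0.05 (95% interval -0.49 to 0.59) and IL1RN by 0.13 (95% interval -0.33 to 0.59).

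Whether the breed difference changed with source was tested by interaction. It was called for 0 of 13 probes, against 0.0146% of all probes, and the lowest unadjusted p was 0.0806 (PTGS2 A_73_P101251, adjusted p = 0.772). A slide held 1 group only, so inside a source the breed cannot be told apart from the slide.

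**Figure D5:**
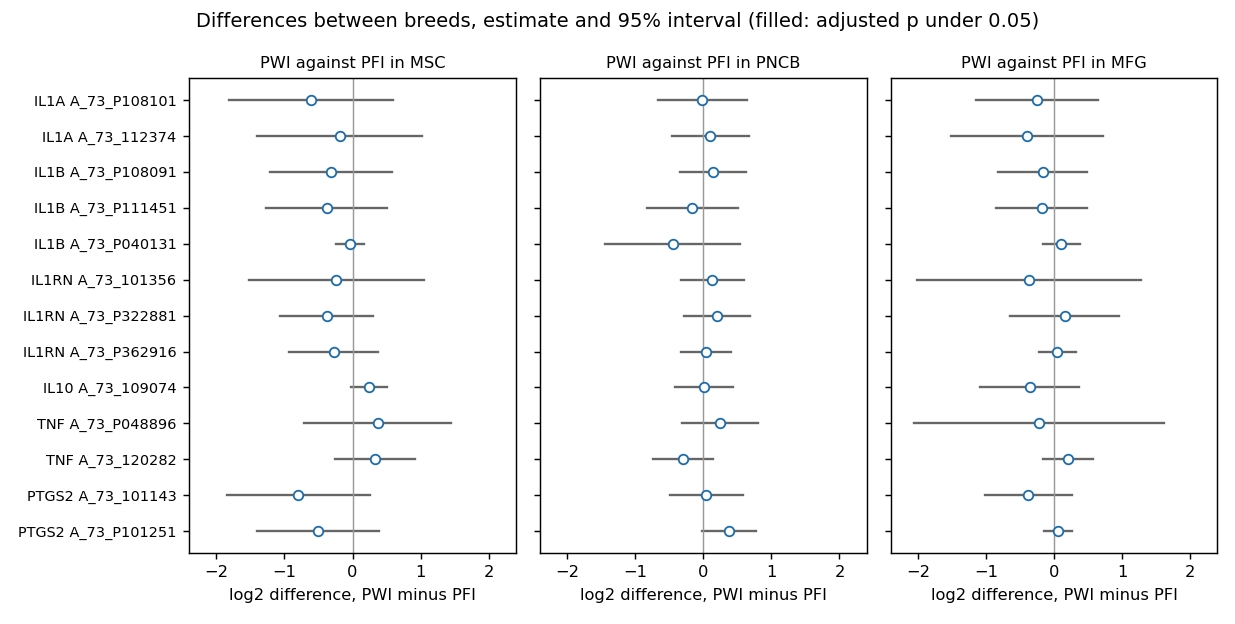
Difference in log2 ratio between the breeds, PWI minus PFI (horizontal axis), for the 13 tested probes (rows) in MSC, PNCB and MFG, with 95% intervals. All intervals cover 0, and 12 of 13 in PNCB, 7 of 13 in MFG and 4 of 13 in MSC lie within a 2-fold change. The PNCB, MFG and MSC counts each include probes that were dim in that source, whose intervals the offset narrows.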

How the data were processed

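The deposited scanner output gives, for each spot and dye, the median intensity and the median local background intensity without normalization. Per the file headers it was made by Feature Extraction 10.7.3.1 of Agilent on a cattle array. Flags of 0 or 1 and the software's processed signal intensity stand in the same files, per the file headers. The authors' deposited table holds the log10 ratio of Cy5 to Cy3, identical to that of the software (largest difference 0). From the deposited intensity, log2 ratios were computed with R 4.3.3 and limma 3.58.1: spots with an outlier flag (1.84% to 21.1% per array) left out, normexp (offset 50), loess within array, spots of a probe averaged. Testing required Cy5 well above background on every array of 1 or more of the 6 groups (27411 of 43653 probes). Sources were compared in 1 limma fit of 24 arrays with 6 group means, breeds on 8 arrays per source, and the interaction by F-test, with Benjamini-Hochberg adjustment. The fit was tested on simulated data.

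The members and lists were chosen with earlier results of these data known. All member probes are described, each gene by its brightest probe. None of 26748 accessions matched the goat table, so 5 pathway lists and the marker lists were not run. The same goats gave all sources, so goat numbers pair the samples, although their deviations correlated weakly (-0.26 to 0.32). With the goat as a replicate block the member calls stayed at 9, 5 and 10, those over all probes were 13196, 17112 and 9318, and no member call changed. Within a source the samples came from separate goats, and the main fit of the sources had no term for the goat. The p-values measure the spread between arrays of a group, in which animals and array quality cannot be told apart. Dyes were not swapped, and a dye effect cannot be told apart from the sample.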

Additional observations from a re-analysis of the deposited data

Results flagged for a closer look

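Among 70 groups of 4 arrays checked for a single value far from the others, 4 were found, where chance gives about 3.5. IL1A A_73_P108101 had a low ratio in blood of PWI goat 3, at -1.03 against 0.18 to 0.24 in the other 3 PWI goats. Its net Cy5 signal there was 233.5, against 120 to 289 in the others, while net Cy3 was 222.5 against 78 to 87. IL1B A_73_P040131 had a low ratio on the same array, at -2.19 against -0.14 to 0.25. Its net Cy5 signal was 36 against 17 to 29, and its net Cy3 was 261 against 46 to 47. Both low ratios thus came with a high reference signal and not with a low sample signal. That array is one of the 4 that stood apart. IL10 A_73_109074 had a low ratio in blood of PWI goat 1, at -0.53 against 0.15 to 0.20. TNF A_73_P048896 was high in milk fat globules of PFI goat 4, at -1.89 against -2.86 to -2.72.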

How the results depend on the processing

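Of 798 values of single probes between sources under alternatives, 718 kept their direction and their side of the threshold, 29 changed sign without a call on either side, 21 lost a call and 26 gained one in the same direction, and 4 turned with a call on at least 1 side. Of 642 breed values 0 were called, and 80 changed sign. IL1B A_73_P040131 in MFG against PNCB turned from 0.22 to -1.08 with the scanner's processed signals and to -1.08 with the deposited table. Without the 4 arrays that stood apart, which include PNCB of PWI goat 3 at -2.19, that difference was -0.07. For the member probes the deposited table gave the same estimates as the processed signals, so the counts above hold such values under both settings. IL10 turned under median centring, to -0.40 against PNCB and -0.65 against MSC. The causes were not tested.

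Member probes called in MFG against PNCB numbered 5 of 13, where 63.9% of all probes were called. They were 10 with processed signals (72.7% of all probes), 11 with median centring (80.5%) and 3 with flagged spots kept (45.9%). With the deposited table they were 10 (72.6%), and in PWI goats alone 3 (41.9%). With the probes of an accession averaged, fewer features are tested. Then 4 of 6 genes were called in MSC against PNCB (52.2% of all accessions). In MFG against PNCB 4 of 6 were called (67.1%), and in MFG against MSC 5 of 6 (36.3%). Over all probes, calls in MFG against MSC (9534) were 18297 with median centring, 4414 with flagged spots kept, 15383 with array weights, 6104 by accession and 3369 in PWI alone. Calls in MFG against PNCB (17493) were 11293 by accession and 11468 in PWI alone, and in MSC against PNCB (13585) 8777 and 7729. Breed calls in MFG (4) were 2 with median centring, 1 with Cy5 alone, 0 with flagged spots kept (limma, 668 at an unadjusted p under 0.05), 35 with array weights and 8 without the 4 arrays, and 1 to 28 with 1 goat left out, the most without PWI goat 2. Breed calls in PNCB (3) were 7 with processed signals, 5 with the deposited table, 0 with flagged spots kept (344 unadjusted), 1 by accession and 6 without the 4 arrays. Interaction calls (4) were 8 with Cy5 alone, 8 with the deposited table, 0 with flagged spots kept (491 unadjusted), 25 with array weights, 16 without the 4 arrays and 2 to 8 with 1 goat left out. The alternative without the 4 arrays was chosen after seeing the data. Slide as a random block changed no member count (correlation 0.0139). Dim MFG signals limit IL1A (3 of 8 arrays above background) and PTGS2 (1 of 8), and IL6 was measured in no source.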

Other observations

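Within milk fat globules, PWI goat 1 and PFI goat 4 were highest for IL1A (0.84 and 0.21), IL1RN (-0.20 and -1.29) and TNF (-0.76 and -1.89). Over the 24 arrays the probe of another accession nearest to IL1B in pattern was IL1A A_73_P108101 (Pearson r = 0.95 over 24 log2 ratios). The probe nearest to IL1RN A_73_101356 was A_73_120005 (accession JX560188, r = 0.98 over 23 ratios). These are descriptions over arrays that share a reference, and the 3 sources set much of the pattern.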
